A study of Mus musculus with 6 samples.

Results

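The genes described here are the 8 subunits of the Sm-like (Lsm) RNA-binding rings, Lsm1 to Lsm8, together with the paralogous pair Lsm14a and Lsm14b. They were taken by gene symbol from the deposited expression table, and all 10 were found among its 24255 genes. The table holds 6 RNA-Seq libraries of fully-grown mouse oocytes (FGOs) at the germinal vesicle (GV) stage, 3 from wild type (WT) females and 3 from Lsm14b-KO females, with 20 oocytes pooled in each library. Lsm14b-KO females are homozygous for the Lsm14b tm1a(KOMP)Mbp allele, a knockout-first insertion that carries a reporter and is present in the whole animal, and the line was kept on a C57BL/6J background. Females of both genotypes were primed with PMSG, a hormone that stimulates follicle growth, at 5 IU, and oocytes were collected 46 h later. The age of the females is not in the labels, nor is whether the 3 pools of a group came from separate animals, so the p-values below measure only the spread between these libraries.

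Lsm proteins share a fold that lets them close into rings around RNA. The ring of Lsm1 to Lsm7 sits in the cytoplasm, binds the 3′ end of mRNAs that have lost most of their poly(A) tail and promotes removal of the 5′ cap, whereas the ring of Lsm2 to Lsm8 sits in the nucleus, holds the 3′ end of U6 snRNA and takes part in pre-mRNA splicing. Lsm1 and Lsm8 are therefore the subunits that set the 2 rings apart, and Lsm2 to Lsm7 belong to both. Lsm14a and Lsm14b form no such ring. They are larger proteins with an Lsm domain at the N-terminus that bind mRNAs held in a translationally silent state, together with the helicase DDX6 and the cap-binding partner 4E-T, and Lsm14b is the form known for its abundance in oocytes, which rely on stored mRNA.

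Because the question put to the paralog rests on telling its reads from those of Lsm14b, the stretch where the 2 coding sequences are most alike is shown. Lsm14a lies on the minus strand of chr7:34344646-34393315 and Lsm14b on the plus strand of chr2:180024987-180035465 (GRCm38, the same assembly as mm10). The sequences below are the start of each open reading frame, from the annotated transcripts of GENCODE vM21, with capitals marking the longest run of bases that the 2 transcripts share.
Lsm14a: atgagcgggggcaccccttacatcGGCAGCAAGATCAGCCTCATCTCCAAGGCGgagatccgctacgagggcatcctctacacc
Lsm14b: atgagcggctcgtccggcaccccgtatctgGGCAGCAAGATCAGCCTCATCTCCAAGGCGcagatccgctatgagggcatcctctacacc
The run is 30 nt long and spans coding positions 25 to 54 of Lsm14a and 31 to 60 of Lsm14b, counted from the A of the start codon. The reads were 150 nt long before trimming, longer than this run. Over the 45 pairs that the 10 genes form, the median of the longest shared run was 11 nt and this pair had the longest.

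Values are FPKM, an abundance per unit of transcript length that is scaled to the sequenced total of each library, as deposited. FPKM is relative to a library's own total, so less RNA per oocyte, or fewer cells of a type in a sample, cannot be told apart from an unchanged amount in these values. Tests were made with limma on log2(FPKM + 1), over the 6398 genes that reached 1 FPKM in at least 1 library, and p-values were adjusted over all of them by the Benjamini-Hochberg method. A gene was called changed at an adjusted p under 0.05. The fold changes given are on the log2(FPKM + 1) scale, which understates the change of low genes.

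The libraries differed in ways that touch every result below. FPKM sums ranged from 1141324 to 1244182 in WT and from 564671 to 1029728 in Lsm14b-KO, and relative depth, read from the lowest values in the table, ranged from 1.00 to 1.14 in WT and from 1.33 to 2.17 in Lsm14b-KO. The WT libraries correlated with each other at r of 0.981 to 0.986 across genes, while Lsm14b-KO replicate 1 stood nearer to WT (r of 0.952 to 0.954) than Lsm14b-KO replicate 2 did (0.867 to 0.890). All 10 oocyte markers reached 1 FPKM in at least 1 library, and 1 of them was called changed, where 21.6% of all tested genes were. Their summed level, led by Dppa3, was 43260 to 54448 FPKM in WT and 27887 to 70239 FPKM in Lsm14b-KO. Ddx4 was at 0.388 to 0.900 FPKM in WT and 2.86 to 3.49 FPKM in Lsm14b-KO, so it entered the test only through Lsm14b-KO. Of 10 cumulus and granulosa cell markers, Amh, Foxl2, Inhba and Cyp11a1 were at 0 in every library. Of the 10, 3 reached 1 FPKM in at least 1 library and 1 was called changed, where 21.6% of all tested genes were. The sum was 9.68 to 13.5 FPKM in WT against 6.13 to 10.0 FPKM in Lsm14b-KO and was mostly Cyp19a1. Cyp19a1 was at 8.26 to 11.5 FPKM in WT and 3.00 to 5.76 FPKM in Lsm14b-KO. Fshr and Kitl were higher in every Lsm14b-KO library than in any WT library, where the groups did not overlap in 45.0% of all tested genes. Kitl stayed under 1 FPKM in every library and was not tested. Fshr was at 0.349 to 1.68 FPKM in WT and 1.82 to 2.07 FPKM in Lsm14b-KO. Inha and Nr5a2 overlapped between the groups, and Fst was above 0 in Lsm14b-KO replicate 3 alone. The theca, stroma and leukocyte markers did not reach 1 FPKM in any library, and all 6 markers of red blood cells were at 0.

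Lsm14b itself was the one of these 10 genes called changed. Its level was 2.77, 3.98 and 1.72 FPKM in WT replicates 1, 2 and 3, and of the Lsm14b-KO libraries 2 listed it at 0 and replicate 3 at 0.102 FPKM. Every Lsm14b-KO library was below every WT library. Weighted by relative depth, the fragments behind the WT values were 8.01 to 20.5 times those behind the value of Lsm14b-KO replicate 3. The log2 difference was −1.85 (SE 0.25, limma adjusted p = 0.0038, n = 3 per group). An exact permutation test of the 6 values gave p = 0.10 (two-sided), which is the smallest p that 3 against 3 can reach. The values cover the gene as a whole and do not say which exons were read.

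Among the 10 Lsm genes 1 was thus called, lower in Lsm14b-KO, where 21.6% of all tested genes were called, 6.38% higher and 15.2% lower. Across the 10 the median log2 difference was −0.39, with 4 positive and 6 negative, beside −0.08 over all tested genes. At an unadjusted p under 0.05 the count was 3 of 10 (Lsm14b, Lsm3 and Lsm7), against 2518 of the 6398 tested genes. The values of the 2 groups did not overlap for 2 of the 10, Lsm14b and Lsm2, where 45.0% of all tested genes did not overlap. Lsm14b is the disrupted gene, so its place in these counts says nothing of the other Lsm genes.

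**Figure D1:**
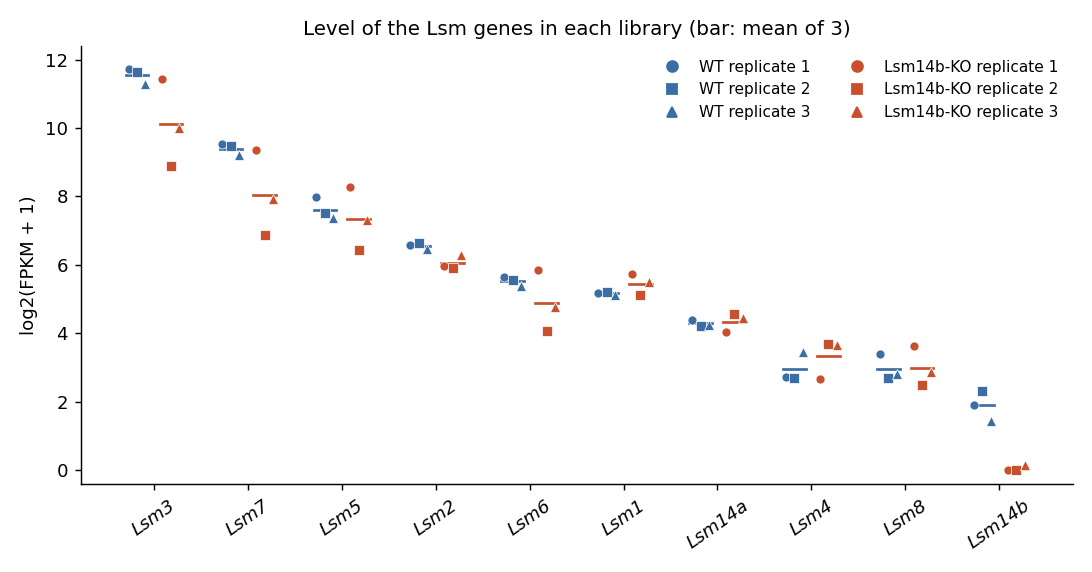
Level of each Lsm gene as log2(FPKM + 1) on the vertical axis, for the 3 WT (blue) and 3 Lsm14b-KO libraries (red), genes ordered by their WT mean and bars giving the group mean. The genes run from Lsm3, with a WT mean of 3018 FPKM, to Lsm14b at 2.83 FPKM, and Lsm14b-KO replicate 1 (red circle) lies near the WT points for Lsm3 and Lsm7.

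The paralog Lsm14a, whose product is found in cytoplasmic processing bodies of many cell types, was present in every library. Its level was 20.2, 17.7 and 18.1 FPKM in WT and, with Lsm14b disrupted, 15.5, 22.4 and 20.7 FPKM in replicates 1, 2 and 3. The groups overlapped, with 1 Lsm14b-KO library below all WT libraries and 2 above. The means were 18.6 ± 1.35 FPKM in WT and 19.5 ± 3.64 FPKM in Lsm14b-KO (SD, n = 3 each), a log2 difference of 0.05 (SE 0.26, limma adjusted p = 0.886; exact permutation p = 0.80). The 95% interval of the difference ran from −0.54 to 0.64, which is 0.689 to 1.56 of the WT level, so a rise or fall inside these bounds was not resolved with 3 libraries a group. The interval holds for FPKM as deposited. On values rescaled so that each library sums to the same total (TPM), which moved the median of all tested genes by 0.48, the difference was 0.72 (95% interval −0.11 to 1.55, adjusted p = 0.157), or 0.32 relative to the median in that setting. After quantile normalization it was 0.45 (adjusted p = 0.256), and after a correction for transcript length and GC content 0.01 (adjusted p = 0.965). Without Lsm14b-KO replicate 1 the difference was 0.20 (adjusted p = 0.425), without replicate 2 it was −0.05, and Lsm14a was not called in any of 17 alternative analyses (adjusted p from 0.157 to 0.996).

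Within the pair, Lsm14a was the more abundant mRNA per unit of transcript length in all 6 libraries. This order is of mRNA and says nothing of protein. The paper reports that LSM14A protein was barely detectable in FGOs, whereas LSM14B protein was present in oocytes of every follicle stage. In WT, Lsm14b made up 12.1%, 18.4% and 8.70% of the summed FPKM of the pair, a mean of 13.1% ± 4.93 (SD, n = 3). The sum of the 2 genes was 22.9, 21.6 and 19.8 FPKM in WT and 15.5, 22.4 and 20.8 FPKM in Lsm14b-KO, or 21.4 ± 1.59 against 19.6 ± 3.65 FPKM (SD, n = 3 each). The sums overlapped between the groups. The Lsm14a locus is overlapped by 4 annotated genes, 1 on the same strand and 3 on the other, and none of them has a row in the table. Since it is not stated whether the libraries keep strand, reads from those genes cannot be told apart from Lsm14a where they overlap.

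Of the 2 subunits that set the rings apart, Lsm1 marks the cytoplasmic decay ring. It was at 35.6, 36.3 and 34.0 FPKM in WT, the tightest spread of the 10 genes, and at 52.0, 34.1 and 43.8 FPKM in Lsm14b-KO. Of the latter, replicates 1 and 3 were above every WT library and replicate 2 was inside the WT range. The means of 35.3 ± 1.18 and 43.3 ± 8.98 FPKM (SD, n = 3 each) differed by 0.27 on the log2 scale (SE 0.27, 95% interval −0.36 to 0.90, limma adjusted p = 0.471). On TPM, Lsm1 was called higher in Lsm14b-KO (0.95, adjusted p = 0.0307), a setting that moved the median of all tested genes by 0.48 and under which 20.6% of all genes were called, 13.0% higher and 7.6% lower. Relative to that median, Lsm1 differed by 0.55.

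Lsm8, which takes the place of Lsm1 in the nuclear ring, was at 9.54, 5.45 and 6.01 FPKM in WT and at 11.3, 4.60 and 6.38 FPKM in Lsm14b-KO. In each genotype replicate 1 was the highest, and the groups overlapped. The means were 6.998 ± 2.22 and 7.41 ± 3.44 FPKM (SD, n = 3 each), with a log2 difference of 0.03 (SE 0.34, 95% interval −0.76 to 0.82, limma adjusted p = 0.954). After the length and GC correction it was called higher (0.85, adjusted p = 0.0342), where 22.7% of all genes were called, 10.2% higher and 12.5% lower, and the median of all genes moved by 0.18. With the replicate number added to that correction the adjusted p was 0.0584.

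The ratio of Lsm1 to Lsm8 within a library, which a change of the library's total does not alter, compares the decay ring with the splicing ring at the mRNA level. It was 3.73, 6.66 and 5.65 in WT and 4.62, 7.40 and 6.87 in Lsm14b-KO. The 2 ranges overlapped. Quantile normalization and the length and GC correction do alter it, and after the latter the log2 difference was 0.26 for Lsm1 and 0.85 for Lsm8.

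The 6 subunits common to both rings covered the widest range of levels. Lsm3, present in both rings, was the most abundant of the 10, above 98.7% of tested genes in WT. It was at 3395, 3155 and 2504 FPKM in WT and in Lsm14b-KO it was at 2793, 476 and 1022 FPKM (replicates 1, 2 and 3). Replicate 1 lay within the WT range, whereas replicates 2 and 3 held 15.8% and 33.9% of the WT mean. The means were 3018 ± 461 and 1430 ± 1211 FPKM (SD, n = 3 each), with a log2 difference of −1.43 (SE 0.59, 95% interval −2.78 to −0.08, limma adjusted p = 0.110), which did not pass the threshold.

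Lsm7, also a subunit of both rings, had a like profile at a lower level. It was at 738, 710 and 587 FPKM in WT and at 655, 116 and 243 FPKM in Lsm14b-KO. Here too replicate 1 was inside the WT range and replicates 2 and 3 were below it, at 17.1% and 35.8% of the WT mean. The log2 difference was −1.35 (SE 0.58, 95% interval −2.68 to −0.02, limma adjusted p = 0.123). The ratio of Lsm3 to Lsm7 was 4.27 to 4.60 in WT and 4.11 to 4.26 in Lsm14b-KO. These ranges did not overlap but lay close together, where ratios to Lsm1 did not overlap in 44.0% of all tested genes. The level of Lsm3 itself ranged from 476 to 3395 FPKM.

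Lsm6 followed the same order of libraries. It was at 48.7, 45.96 and 40.9 FPKM in WT and at 56.8, 15.7 and 26.0 FPKM in Lsm14b-KO, so that replicate 1 was above every WT library and replicates 2 and 3 below. The log2 difference was −0.64 (SE 0.44, 95% interval −1.66 to 0.39, limma adjusted p = 0.307). Without Lsm14b-KO replicate 1, Lsm3 (−2.10, adjusted p = 0.00111), Lsm7 (−2.002, adjusted p = 0.00126) and Lsm6 (−1.12, adjusted p = 0.00772) were called lower by limma, which with Lsm14b made 4 of the 10 genes. Other settings made the differences smaller: Lsm3 was at −0.74 on TPM and −0.56 after the length and GC correction, Lsm7 at −0.66 and −0.48, and Lsm6 at 0.03 and −0.76, none of them called. Without replicate 1, 28.7% of all tested genes were called lower and 47.0% were called in either direction. Leaving out any other library left 1 of the 10 called.

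**Figure D2:**
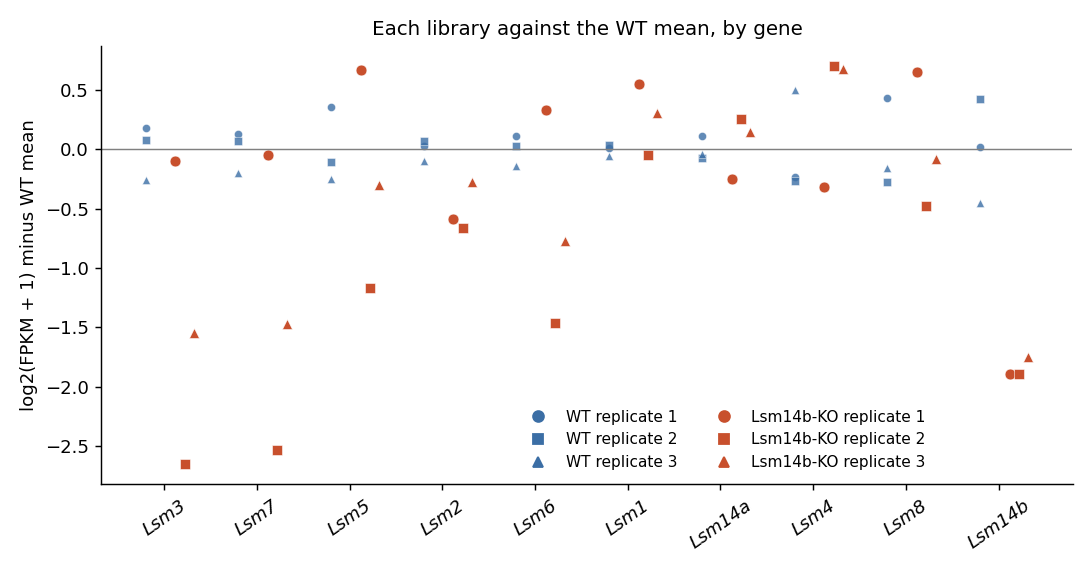
Difference of each library from the WT mean, as log2(FPKM + 1), for the 3 WT (blue) and 3 Lsm14b-KO libraries (red). For Lsm3, Lsm7, Lsm5, Lsm6 and Lsm8 the Lsm14b-KO libraries fall in the order replicate 1, 3, 2 from high to low, with replicate 2 of Lsm3 at −2.65 from the WT mean, and for Lsm4 and Lsm14a replicate 1 is the lowest.

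Lsm2, the first of the shared subunits, was at 95.2, 97.9 and 87.3 FPKM in WT and at 61.7, 58.7 and 77.2 FPKM in Lsm14b-KO. All 3 Lsm14b-KO libraries, replicate 1 included, were below all WT libraries. The means were 93.5 ± 5.51 and 65.9 ± 9.93 FPKM (SD, n = 3 each), with a log2 difference of −0.51 (SE 0.27, 95% interval −1.13 to 0.12, limma adjusted p = 0.196). The sign depended on the scaling, since the difference was 0.18 on TPM, 0.10 after the length and GC correction and 0.079 after quantile normalization.

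Lsm5 was at 250, 181 and 164 FPKM in WT and at 311, 86.0 and 158 FPKM in Lsm14b-KO, 1 library above the WT range and 2 below it. The log2 difference was −0.27 (SE 0.48, 95% interval −1.37 to 0.83, limma adjusted p = 0.685). It was 0.80 after the length and GC correction, where Lsm5 was called higher (adjusted p = 0.0497, and 0.0895 with the replicate number added), and 0.42 on TPM, where it was not (adjusted p = 0.299). The ratio of Lsm5 to Lsm7 was 0.256 to 0.339 in WT and 0.475 to 0.744 in Lsm14b-KO, without overlap.

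Lsm4, whose subunit carries a tail rich in arginine and glycine, was the least abundant of the shared subunits. It was at 5.65, 5.53 and 10.1 FPKM in WT and at 5.29, 11.8 and 11.5 FPKM in Lsm14b-KO. Replicate 1 of Lsm14b-KO was below every WT library and replicates 2 and 3 were above every one, which is the opposite order to that of Lsm3, Lsm6 and Lsm7. The log2 difference was 0.36 (SE 0.36, 95% interval −0.47 to 1.18, limma adjusted p = 0.467), and Lsm4 was not called in any of the 17 alternatives.

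Some of these genes have near-identical copies elsewhere in the annotation, defined as at least 95% identity over at least 200 nt. Lsm5 had 2, Lsm6 had 3 and Lsm7 had 2, and none of these copies has a row in the table. How reads shared with a copy were assigned is not stated, and the levels of Lsm5, Lsm6 and Lsm7 are uncertain to that extent. Lsm3 is overlapped on its own strand by 1 annotated transcript that has no row in the table.

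**Figure D3:**
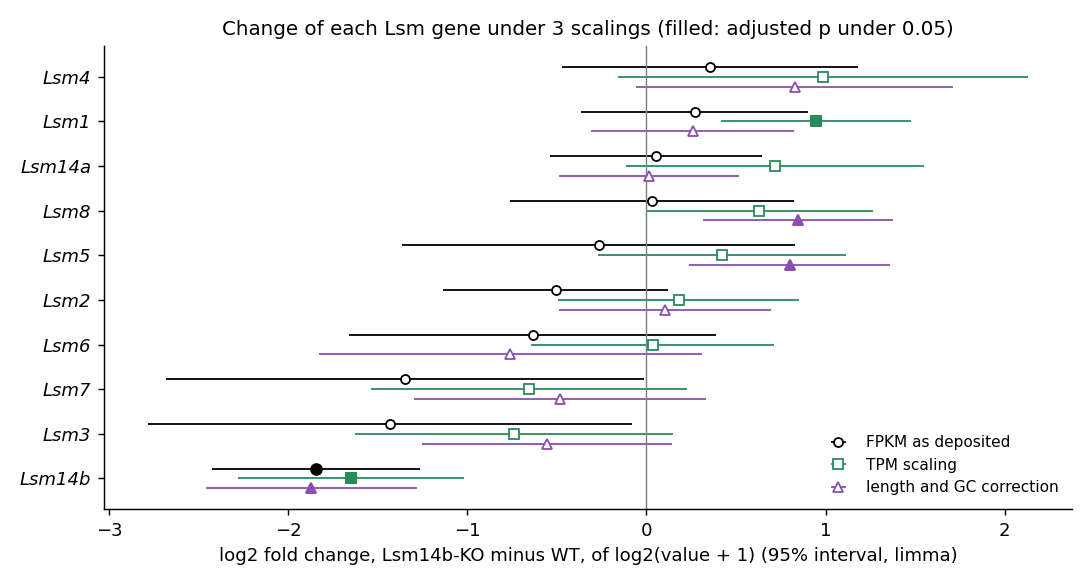
Log2 fold change of each Lsm gene, Lsm14b-KO minus WT, on the horizontal axis with its 95% interval from limma, for FPKM as deposited (circles), TPM scaling (squares) and the correction for length and GC content (triangles), filled where the adjusted p was under 0.05. Lsm14b is filled in all 3, Lsm1 on TPM alone among the 3 (0.95), and Lsm8 (0.85) and Lsm5 (0.80) after the correction alone among the 3.

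In WT oocytes the FPKM levels of subunits that assemble in equal numbers were far from equal. From high to low the order was Lsm3, Lsm7, Lsm5, Lsm2, Lsm6, Lsm1, Lsm14a, Lsm4, Lsm8 and Lsm14b. The WT mean of Lsm3 was 4.45 times that of Lsm7, and that of Lsm7 was 3.42 times that of Lsm5. The narrowest gap without overlap was between Lsm6 and Lsm1, a ratio of 1.28. Lsm4 and Lsm8 overlapped and are not ordered, with means that differed by a factor of 1.01, and every other pair of neighbors was separated in all 3 WT libraries. Lsm14b, above 49.8% of tested genes, was near the middle of the tested genes, and Lsm14a was above 77.5% of them. The genes at the top of the order, Lsm3, Lsm7 and Lsm5, also have the shortest transcripts of the 10 (618, 468 and 494 nt). Whether transcript length enters the order was not tested, and the levels of Lsm5, Lsm6 and Lsm7 are uncertain because of their copies. These are comparisons per length of FPKM levels, and say nothing of protein.

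Ratios within a library give a view of ring stoichiometry at the mRNA level that does not depend on a library's total. Lsm1, the gene with the narrowest WT spread, was taken as the denominator after its values were seen. The ratio of Lsm2 to Lsm1 was 2.57 to 2.70 in WT and 1.19 to 1.76 in Lsm14b-KO. For Lsm6 the ranges were 1.20 to 1.37 and 0.460 to 1.09. For Lsm7 they were 17.3 to 20.7 and 3.39 to 12.6, and for Lsm3 73.7 to 95.5 and 14.0 to 53.7. In these 4 genes and in Lsm14b the ratio did not overlap between the groups, which made 5 of 9. Of all tested genes, 44.0% had a ratio to Lsm1 that did not overlap. Lsm14b is the disrupted gene and no ring subunit, so its place among the 5 says nothing of ring stoichiometry. Lsm4, Lsm5, Lsm8 and Lsm14a overlapped. All these ratios share the values of Lsm1, 2 of which were above the WT range in Lsm14b-KO, and are not independent of each other. They rest on FPKM as deposited, and after the length and GC correction the log2 difference was 0.10 for Lsm2 and 0.26 for Lsm1, against −0.51 and 0.27 before it.

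**Figure D4:**
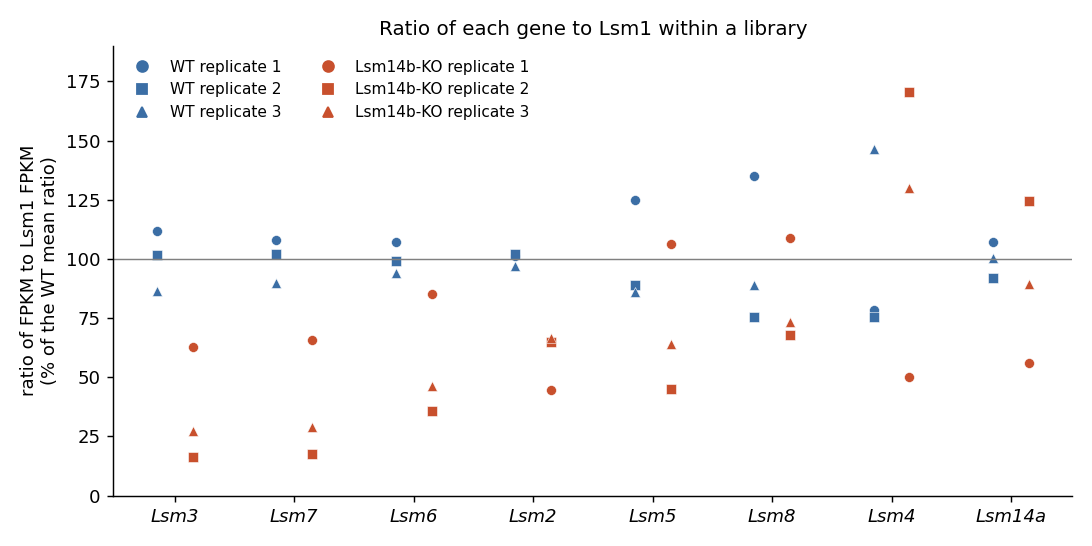
FPKM of each gene divided by that of Lsm1 in the same library, as a percent of the mean WT ratio (vertical axis from 0), for the 3 WT (blue) and 3 Lsm14b-KO libraries (red). For Lsm3, Lsm7, Lsm6 and Lsm2 all red points lie below all blue points, and for Lsm5, Lsm8, Lsm4 and Lsm14a they overlap.

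Transcript length moved with these values. Of the 10 genes, Lsm2, Lsm3, Lsm4, Lsm5, Lsm7 and Lsm8 have a transcript under 1000 nt, from 468 nt in Lsm7 to 925 nt in Lsm4, and Lsm1, Lsm6, Lsm14a and Lsm14b have longer ones, from 2534 to 3792 nt. Over all tested genes the median log2 difference was −0.62 for the 948 genes with a transcript under 1000 nt, of which 20.8% were called lower and 1.37% higher. It was 0.04 for the 5370 genes with a longer transcript, of which 14.2% were called lower and 7.21% higher. By library, the median of the short transcripts against the WT mean was −0.21 in Lsm14b-KO replicate 1, −1.04 in replicate 2 and −0.64 in replicate 3, which is also the order seen for Lsm3, Lsm5, Lsm6, Lsm7 and Lsm8. The short Lsm2 (highest in replicate 3) and Lsm4 (lowest in replicate 1) did not follow that order. Lsm6 is 1 of the longer transcripts, with annotated forms of 2107 and 3792 nt. The part of transcript length in the values of the Lsm genes was not tested beyond the correction given above.

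**Figure D5:**
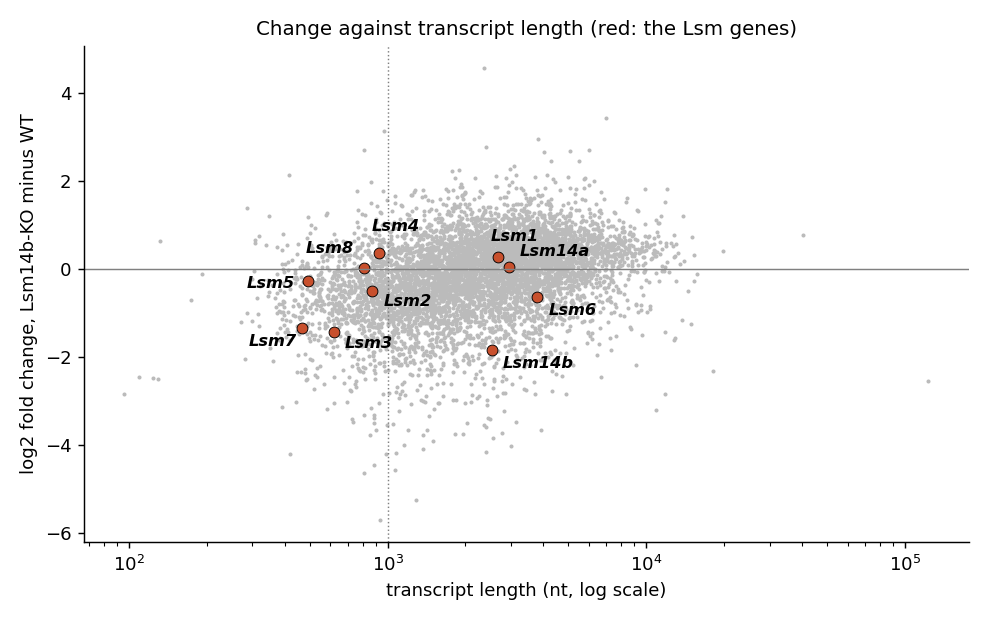
Log2 fold change, Lsm14b-KO minus WT, against transcript length in nt on a log axis, for the tested genes with a known length (grey) and the 10 Lsm genes (red), with a dotted line at 1000 nt. Short transcripts lie lower on the whole (median −0.62 under 1000 nt and 0.04 above), and Lsm3 and Lsm7 lie below that median while Lsm2, Lsm4, Lsm5 and Lsm8 lie above it.

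The Sm ring, the related ring of the spliceosomal snRNPs, was the closest group for comparison. Of its 8 genes 7 were tested, and 2 were called, both lower, where 15.2% of all tested genes were called lower. Snrpd1, which encodes SmD1, was at 1193, 1134 and 868 FPKM in WT and 678, 188 and 333 FPKM in Lsm14b-KO, a log2 difference of −1.59 (SE 0.47, limma adjusted p = 0.0465). Snrpf, which encodes SmF, was at 14.5, 20.0 and 17.2 FPKM in WT and 9.96, 4.01 and 7.20 FPKM in Lsm14b-KO, a log2 difference of −1.24 (SE 0.33, limma adjusted p = 0.0342). In both genes every Lsm14b-KO library was below every WT library, where the groups did not overlap in 45.0% of all tested genes. The median of the 7 was −1.24 with 6 negative, and it was −0.62 on TPM, where none was called. Without Lsm14b-KO replicate 1, 6 of the 7 were called lower, where 28.7% of all tested genes were.

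Among the other genes with an Lsm domain 3 of the 7 in the table were tested, with a median of −1.15 beside −0.08 over all tested genes. Lsm10 was called lower, where 15.2% of all tested genes were. Lsm10 is a subunit of the U7 snRNP, which processes histone mRNA. It was at 4023, 3423 and 3140 FPKM in WT and at 2315, 907 and 1288 FPKM in Lsm14b-KO, with a log2 difference of −1.33 (SE 0.38, limma adjusted p = 0.0424). All Lsm14b-KO libraries were below all WT libraries, where the groups did not overlap in 45.0% of all tested genes. The level of Lsm10 in WT was above that of Lsm3. On TPM the difference was −0.64 (adjusted p = 0.0516).

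The partners of the decay ring had low values in the table. Of 9 genes for decapping factors and associated proteins 4 were tested, with a median of 0.89, and 2 were called, both higher, where 6.38% of all tested genes were. Dcp2, the decapping enzyme, stayed under 1 FPKM in every library, and Edc3 and Dcp1b were listed at 0 in all 6. A 0 in a table without counts can be a failed estimate and is not read here as a lack of the mRNA. Patl2, an oocyte form of the scaffold that links the ring to decapping, was at 0.463, 0.506 and 0.448 FPKM in WT and 2.60, 4.21 and 2.23 FPKM in Lsm14b-KO, a log2 difference of 1.42 (SE 0.23, limma adjusted p = 0.00624). Ddx6, the helicase that binds both Patl and Lsm14 proteins, was listed at 0 in 2 WT libraries and at 0.340 FPKM in the other, and at 0.825, 3.48 and 1.35 FPKM in Lsm14b-KO (log2 difference 1.28, SE 0.34, limma adjusted p = 0.0347). Both genes were higher in every Lsm14b-KO library than in any WT library, where the groups did not overlap in 45.0% of all tested genes. Neither reached 1 FPKM in a WT library, so both entered the test only through the group in which they were high. The counts and median of this list rest on such genes. These are mRNA values, and by Western blot the paper reports less protein of both genes, DDX6 and PATL2, in Lsm14b-KO oocytes.

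The 2 also belong to the list of proteins that bind Lsm14, of which 5 of 7 were tested, with a median of 0.32. They were the only calls in it, where 6.38% of all tested genes were called higher. The limit that both entered the test only through the Lsm14b-KO libraries holds here too. With a filter on a mean of at least 1 FPKM, 4 genes of this list were tested and 1 was called. In that list Eif4enif1, which encodes 4E-T, was at 9.61 to 10.1 FPKM in WT and 11.02 to 14.4 FPKM in Lsm14b-KO. Prmt1 was listed at 0 in every library.

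The partners of the splicing ring in the U6 and tri-snRNP particles were 18 genes in the table, of which 10 were tested, with a median of −0.50 (0.04 on TPM). None was called higher and 2 were called lower, where 6.38% and 15.2% of all tested genes were, and on TPM 1 was called higher and 1 lower. Snrnp27, which encodes a tri-snRNP protein, was at 507, 527 and 423 FPKM in WT and at 104, 16.7 and 40.1 FPKM in Lsm14b-KO. In every Lsm14b-KO library, replicate 1 included, it was below the lowest WT value, where the groups did not overlap in 45.0% of all tested genes. The log2 difference of Snrnp27 was −3.51 (SE 0.59, limma adjusted p = 0.00751). Usp39, needed for the tri-snRNP to join the spliceosome, was at 1.66, 1.56 and 1.48 FPKM in WT and 0.574, 0.589 and 0.585 FPKM in Lsm14b-KO (log2 difference −0.70, SE 0.18, limma adjusted p = 0.0293).

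Patl2 and Snrnp27 were called under all 17 alternatives (limma adjusted p from 0.00204 to 0.0334 and from 6.63e-05 to 0.0474). Patl2 passed the filter on low values only through the Lsm14b-KO libraries, so its count of calls is not independent support. With no filter on low values its limma adjusted p was 0.0216. For the other 5 genes named from these lists, leaving out Lsm14b-KO replicate 2 or 3, or WT replicate 1, 2 or 3, took the adjusted p past the threshold, in fits that called 321 to 915 of all genes in place of 1383. The log2 differences kept their sign, at −1.73 to −1.15 for Snrpd1, −1.35 to −0.93 for Snrpf, −1.41 to −1.02 for Lsm10, 0.91 to 1.42 for Ddx6 and −0.72 to −0.67 for Usp39. Their adjusted p over those 5 fits was 0.074 to 0.152 for Snrpd1, 0.0558 to 0.12 for Snrpf and 0.0721 to 0.15 for Lsm10. It was 0.0695 to 0.112 for Ddx6 and 0.0679 to 0.11 for Usp39. Without Lsm14b-KO replicate 1 all 7 were called, where 47.0% of all tested genes were. The 7 were named because they were called in the fit of all 6 libraries, so this count is not separate support. On TPM the call was also lost for Snrpd1 (adjusted p = 0.0536), Snrpf (0.119), Lsm10 and Usp39 (0.252), and it was kept for Ddx6 (0.0443). Ddx6 lost the call with no filter on low values (adjusted p = 0.083). After the length and GC correction Snrpf was at −0.42 (adjusted p = 0.227) and Lsm10 at −0.80 (adjusted p = 0.0559).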

How the data were processed

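Expression was measured by RNA-Seq after Smart-seq2 amplification. The authors aligned 150 nt read pairs to mm10 with TopHat2 (2.0.13) and deposited FPKM per gene and library from Cufflinks (2.2.1), as the labels and the submitters' processing notes state. The annotation is not given in the sources used here, the labels name 2 library kits, and strand is not stated. The deposited table also holds the authors' own Cuffdiff fold changes and p-values, which were not used. Counts and total depth are not in the table.

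Groups came from the sample labels. The deposited FPKM values were taken as log2(FPKM + 1) for genes whose highest library reached 1 FPKM and tested with limma 3.58.1 (intensity trend, genotype as the term, two-sided) in R 4.3.3, after the code was tested on simulated data. Ratios and summaries were made in Python 3.11.15. Annotation came from GENCODE vM21 and copies from blastn 2.17.0. The named genes were the 10 members and, from each list, up to 3 rises and 3 falls past the threshold. Further genes named with values were chosen after their values were seen. The members and lists were chosen with earlier results of these data known. The 17 alternatives covered the pseudocount (0.1 and 0.01), the filter, TPM, median-of-ratios and quantile scaling, a length and GC correction, the trend, a replicate block and leaving out each library.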

Additional observations from a re-analysis of the deposited data

How the results depend on the processing

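Lsm14b was called under all 17 alternatives (adjusted p from 0.00121 to 0.0274), and the number of the 10 Lsm genes called was 2 on TPM, 3 after the length and GC correction and 1 to 4 when a library was left out, 4 being without Lsm14b-KO replicate 1. The number of all tested genes called fell from 1383 to 720 with no filter on low values. It was 2952 without Lsm14b-KO replicate 1, 915 without replicate 2, 321 without replicate 3, and 408, 426 and 537 without WT replicates 1, 2 and 3. The split of higher against lower calls was 408 to 975 on FPKM, 833 to 486 on TPM, 540 to 735 after quantile normalization, which moved the median of all genes by 0.14, and, with transcript length and GC content corrected, 646 to 787. The differences of some uncalled genes changed sign. Lsm14a was −0.051 without Lsm14b-KO replicate 2 and ranged up to 0.20 when a library was left out, and it was 0.72 on TPM and 0.45 after quantile normalization. Lsm2 was 0.18 on TPM, 0.10 after the length and GC correction and 0.079 after quantile normalization. Lsm5 was 0.42, 0.80 and 0.39 in those settings and −0.74 to 0.18 when a library was left out, the positive value being without Lsm14b-KO replicate 2. Lsm6 was 0.034 on TPM. Lsm8 was −0.28 without Lsm14b-KO replicate 1, and −0.11 and −0.05 without WT replicates 2 and 3, with a highest value of 0.28 without Lsm14b-KO replicate 2. Among the 7 genes named from the comparison lists the threshold was lost in 47 combinations of gene and alternative, and among the Lsm genes it was passed anew with the direction kept in 5. The cause was not tested. Depth in fragments is unknown, so no counting interval could be given.

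Whether the replicate numbers pair the libraries was not decided. The deviations of same-numbered libraries from their group means correlated at 0.19, −0.128 and 0.018. Lsm14b-KO replicates 1 and 3 correlated best with the WT library of their own number, and replicate 2 with WT replicate 3 (0.306). With 3 libraries a group these correlations cannot exclude a pairing. With the replicate number as a block, 1244 genes and 1 of the 10 Lsm genes were called, and with the length and GC correction as well, Lsm2 was 0.10 and Lsm5 0.80, with the call of Lsm5 lost (adjusted p = 0.0895) as was that of Lsm8 (0.0584). The block also ended the call of Snrpf (adjusted p = 0.0522) and of Usp39 (0.0609).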
